A study of Mus musculus with 12 samples.

Results

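The 7 transcription factor genes tied to the caudal ganglionic eminence (CGE) that are followed here through the histone maps of the neonatal mouse cortex are *Nr2f1*, *Nr2f2*, *Prox1*, *Sp8*, *Sp9*, *Npas1* and *Npas3*. They were chosen by name, with earlier results of these data known, out of 21755 protein-coding genes on the autosomes and the X chromosome. Cortex of *Gad67-GFP* heterozygote pups at postnatal day 2 was dissociated and sorted, and native chromatin immunoprecipitation and sequencing was carried out for H3K27ac, a mark of active promoters and enhancers, and for H3K27me3, a mark of Polycomb repression. GFP+ cells are called cortical interneurons (CINs) and GFP- cells non-CINs. The reporter follows *Gad67* (*Gad1*), so the CINs are GABAergic cells of every origin and not of the CGE alone, and the non-CINs can hold any other cell of the dissected cortex, excitatory neurons and glia among them. Each mark was mapped in 2 replicates of each population, which gives 8 peak lists, and tissue was pooled from 2 to 3 litters per sample. All samples came from pups carrying the same *Gad67-GFP* allele, and there was no other genotype or treatment.

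The CGE is a part of the embryonic ventral forebrain that produces a large share of cortical interneurons, among them those that later make VIP, reelin or calretinin. *Nr2f1* (COUP-TFI) and *Nr2f2* (COUP-TFII) encode orphan nuclear receptors, and *Nr2f1* is also known for its part in patterning the cortex itself. *Prox1* encodes a homeodomain protein kept by CGE-derived interneurons as they mature, *Sp8* and *Sp9* encode related zinc finger factors of ventral forebrain progenitors and young interneurons, and *Npas1* and *Npas3* encode basic helix-loop-helix PAS proteins. Polycomb marks such as H3K27me3 commonly cover developmental transcription factor genes in cells that do not use them.

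Each gene was read in a window from 5 kb upstream of its annotated transcription start site (TSS) to its end, in the mm10 build with GENCODE vM21. *Nr2f1* lies on chromosome 13 (78188973–78199757, minus strand), *Nr2f2* on chromosome 7 (70351944–70366735, minus), *Prox1* on chromosome 1 (190118035–190170714, minus), and *Npas1* on chromosome 7 (16455721–16477728, minus). *Sp8* lies on chromosome 12 (118846329–118852576, plus), *Sp9* on chromosome 2 (73271925–73284706, plus), and *Npas3*, the longest at 823499 bp, on chromosome 12 (53248677–54072175, plus). A peak was ranked by its fold enrichment over the input, the signal ratio that the peak caller gave, as a percentile among all peaks of its own list, so a percentile of 100 is the strongest peak of that list. Values are given for replicate 1 and then replicate 2. The lists hold peak calls and no read counts, so the depth of each library is unknown.

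H3K27ac regions found in 1 population only lay within 500 kb of each of the 7 genes in both directions, as at many genes, with counts given further on. The sequences below show, for 6 of the genes, the strongest CIN-only regions that overlap no exon (a pair for *Sp8*). The long regions inside *Sp8* and *Sp9* overlap exons and are not printed. Shown are the central 200 bases of CIN-only regions (called in both CIN replicates, with no peak in the non-CIN list of the same replicate number), read from the plus strand of GRCm38.p6, the assembly of mm10. Capitals mark a short core from a fixed set of 6, searched on both strands: TAATTA (homeodomain factors), CTGTCA (MEIS), ACAATG (SOX), AGGTCA (a nuclear receptor core), GGGCGG (SP factors) and CAGCTG (an E-box). A core read on the minus strand stands as its reverse complement. None of the cores shown overlaps another, and a sequence with no capitals holds none of the 6.
*Sp8*, 120 kb upstream (chr12:118726124-118726323): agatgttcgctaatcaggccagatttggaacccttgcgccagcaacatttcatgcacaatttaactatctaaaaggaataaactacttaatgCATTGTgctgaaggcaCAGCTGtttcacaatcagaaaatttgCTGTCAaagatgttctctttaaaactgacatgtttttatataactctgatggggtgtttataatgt
*Sp8*, 126 kb upstream (chr12:118720355-118720554): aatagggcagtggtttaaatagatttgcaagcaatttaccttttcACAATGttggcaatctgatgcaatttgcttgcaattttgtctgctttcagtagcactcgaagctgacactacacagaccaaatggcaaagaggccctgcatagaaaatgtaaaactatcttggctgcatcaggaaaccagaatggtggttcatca
*Sp9*, 3.3 kb upstream (chr2:73268521-73268720): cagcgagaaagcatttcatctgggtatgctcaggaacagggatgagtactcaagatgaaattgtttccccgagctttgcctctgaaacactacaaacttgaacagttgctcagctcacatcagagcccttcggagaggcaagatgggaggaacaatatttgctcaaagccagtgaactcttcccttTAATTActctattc
*Nr2f1*, 403 kb upstream (chr13:78602571-78602770): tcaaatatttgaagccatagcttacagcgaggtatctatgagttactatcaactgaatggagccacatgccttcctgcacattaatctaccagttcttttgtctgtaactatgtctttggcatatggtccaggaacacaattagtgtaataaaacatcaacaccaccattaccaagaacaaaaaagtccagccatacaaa
*Nr2f2*, 262 kb downstream of the TSS (chr7:70104243-70104442): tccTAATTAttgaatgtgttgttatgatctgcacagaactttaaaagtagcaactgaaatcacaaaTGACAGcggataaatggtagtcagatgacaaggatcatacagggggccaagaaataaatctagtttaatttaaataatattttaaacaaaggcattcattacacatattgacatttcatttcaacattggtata
*Prox1*, intron (chr1:190137977-190138176): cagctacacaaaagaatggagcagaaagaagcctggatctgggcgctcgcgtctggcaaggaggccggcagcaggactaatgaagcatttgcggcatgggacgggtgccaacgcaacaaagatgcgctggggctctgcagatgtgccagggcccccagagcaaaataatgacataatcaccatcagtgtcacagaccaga
*Npas1*, intron (chr7:16472066-16472265): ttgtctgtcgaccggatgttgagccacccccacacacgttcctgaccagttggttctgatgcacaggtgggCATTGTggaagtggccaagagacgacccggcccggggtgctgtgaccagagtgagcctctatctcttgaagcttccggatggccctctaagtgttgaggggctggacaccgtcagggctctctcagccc

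At *Npas3* most of these regions were non-CIN-only, and the strongest is shown in the same way. It lies in an intron, 432 kb from the TSS, and holds none of the 6 cores in its central 200 bases.
*Npas3*, intron (chr12:53680880-53681079): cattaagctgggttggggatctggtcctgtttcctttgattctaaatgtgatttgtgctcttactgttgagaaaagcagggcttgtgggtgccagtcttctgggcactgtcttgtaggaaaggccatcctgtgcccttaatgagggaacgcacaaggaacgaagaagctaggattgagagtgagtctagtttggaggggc

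The 7 genes fell into groups that did not share 1 chromatin state. *Sp8* and *Sp9* carried broad H3K27ac in both CIN lists and none in the non-CIN lists, while H3K27me3 covered nearly the whole window of both genes in all 4 lists. *Nr2f1* was almost fully covered by H3K27ac in CINs and non-CINs alike, *Nr2f2* was almost fully covered by H3K27me3 in both, *Prox1* had more H3K27ac in CINs, *Npas1* had a small CIN-only intronic peak, and *Npas3* had more H3K27ac in non-CINs. All 7 genes had an H3K27me3 peak in all 4 lists, a state shared by 21.2% of the 21755 genes (4621 genes). It was shared as well by 8 of 10 transcription factor genes of the ventral forebrain, 7 of 9 of the medial ganglionic eminence, 12 of 16 CGE interneuron markers, and 54.5% of the 213 genes with H3K27ac in both CIN lists and neither non-CIN list.

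Counting a gene when both lists of a population covered more bp of its window than both lists of the other, H3K27ac was more extensive in CINs at 4 of the 7 genes (*Prox1*, *Sp8*, *Sp9* and *Npas1*). Of the 14667 genes with an H3K27ac peak in their window, 18.0% met the same condition. In the reverse direction, 1 gene of the 7 (*Npas3*) was counted, against a background that was again 18.0%. H3K27ac in both CIN lists and in neither non-CIN list was found at 3 of the 7 (*Sp8*, *Sp9* and *Npas1*), and at 1.45% of the 14667 genes (213). For H3K27me3, 1 gene (*Nr2f1*) was covered more in both CIN lists, with a background of 7.34% of 8939 genes, and none was covered more in both non-CIN lists, with a background of 11.1%. Compared within replicate numbers instead, as a replicate block does, the H3K27me3 counts were 2 (*Nr2f1* and *Npas3*) and 2 (*Prox1* and *Sp9*), and that looser condition was met by 16.7 and 25.4% of the 8939 genes. With 2 lists against 2, a two-sided exact permutation test cannot give a p below 0.333, so no single gene could pass a threshold of 0.05, and the counts stand as descriptions. The genes were chosen with earlier results of these data known, so the counts may not be independent of that choice. The median difference (CIN minus non-CIN) over the 7 genes was 22.1 bp of H3K27ac per kb of window and 0.0 bp of H3K27me3 per kb, beside 0.37 and -1.48 over all genes with a peak of that mark.

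**Figure D1:**
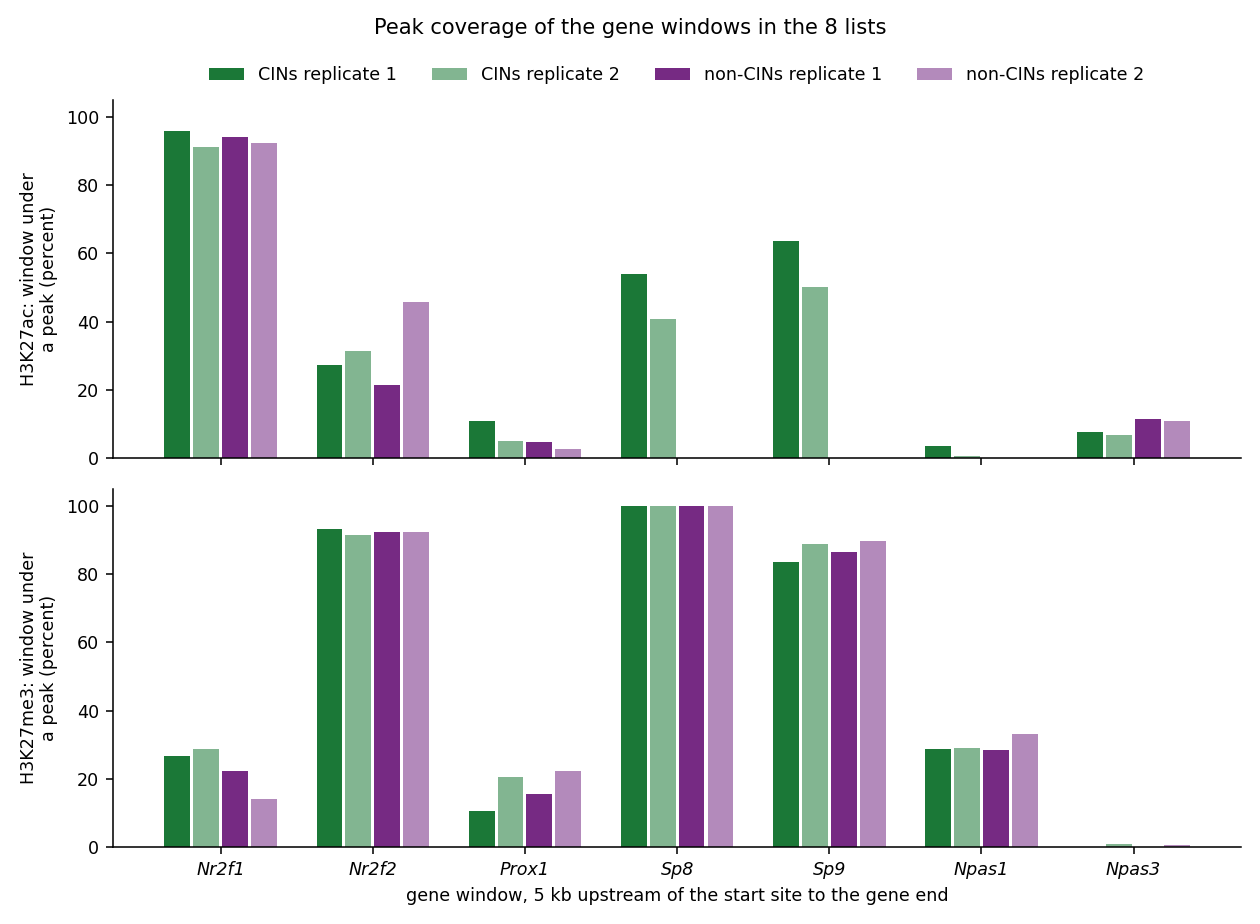
Percent of each gene window under a peak, with H3K27ac above and H3K27me3 below; each bar is 1 list, dark for replicate 1 and pale for replicate 2, green for CINs and purple for non-CINs. *Sp8* and *Sp9* have H3K27ac bars from 40.8 to 63.7% in CINs and none in non-CINs, while all 4 *Nr2f1* bars lie between 91.3 and 95.9%.

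*Sp8* encodes a zinc finger factor used by CGE and dorsal lateral eminence lineages. H3K27ac peaks covered 6062 and 4590 bp of its 11248 bp window in CINs, in 7 and 3 peaks, and 0 bp in both non-CIN lists. Both CIN lists were therefore above both non-CIN lists, with a mean of 5326 ± 1041 bp (SD, n = 2). The strongest of these peaks ranked at percentiles 74.6 and 71.4. A single H3K27me3 peak covered the whole window (100%) in every one of the 4 lists, at percentiles 97.0 and 99.2 for CINs, then 99.3 and 99.4 for non-CINs, and 0.363% of coding genes were covered to that extent in all 4 lists. All of the H3K27ac in the *Sp8* window (100% in both CIN replicates) therefore lay under H3K27me3 of the same replicate, as any peak there must. The TSS itself was under an H3K27ac peak in CIN replicate 1 only. Each library is a mixture of cells, so both marks on the same chromosome and each mark in different cells cannot be told apart, and neither can fewer marked cells and less mark per cell.

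*Sp9*, a close relative of *Sp8*, looked much the same. H3K27ac covered 11320 and 8913 bp of its 17782 bp window in CINs, in 7 and 6 peaks, and 0 bp in both non-CIN lists. The CIN mean was 10117 ± 1702 bp (SD, n = 2), and the strongest peaks ranked at percentiles 85.6 and 81.0, above those of *Sp8* in each replicate. Only 0.331% of coding genes had as large a share of their window under H3K27ac in both CIN lists as *Sp9* (50.1% at the least), and 0.648% as large a share as *Sp8* (40.8%). The CIN lists gave 14860 and 15771 bp of H3K27me3 and the non-CIN lists 15344 and 15968 bp, so the groups overlapped in extent. The strongest H3K27me3 peak was at percentiles 97.9 and 99.0 for CINs and 99.5 and 99.6 for non-CINs, within lists of different length (38158 and 36662 peaks, then 45081 and 42575), so no difference in rank was read from them. H3K27me3 overlapped 99.7 and 100% of the H3K27ac bp in CIN replicates 1 and 2. No H3K27ac peak lay over the *Sp9* TSS in any list: the peaks sat on either side of it, and they became 1 region across it only after peaks within 500 bp were merged.

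The promoters of this pair differed in base composition. The 250 bases before the RefSeq start (GRCm38.p6, plus strand, capitals as above) held 1 CpG and 40.8% G and C for *Sp8*, and 18 CpG and 62.4% G and C for *Sp9*. The *Sp8* stretch held 1 CTGTCA, a core present in 15.9% of 32851 RefSeq promoters (windows of 300 bases), and the *Sp9* stretch held 1 GGGCGG, present in 32.7%.
*Sp8* promoter (chr12:118846079-118846328): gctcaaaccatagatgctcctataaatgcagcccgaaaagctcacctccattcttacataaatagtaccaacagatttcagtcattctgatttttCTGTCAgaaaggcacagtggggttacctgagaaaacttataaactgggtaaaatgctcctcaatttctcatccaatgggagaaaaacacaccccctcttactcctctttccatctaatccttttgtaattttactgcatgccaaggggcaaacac
*Sp9* promoter (chr2:73271676-73271925): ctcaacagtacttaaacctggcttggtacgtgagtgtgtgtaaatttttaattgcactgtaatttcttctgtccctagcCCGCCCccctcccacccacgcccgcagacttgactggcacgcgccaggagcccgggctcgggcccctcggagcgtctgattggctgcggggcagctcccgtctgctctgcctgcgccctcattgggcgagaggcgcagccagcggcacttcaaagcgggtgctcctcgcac

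*Prox1*, the homeodomain gene, had H3K27ac over all 3 of its annotated start sites in all 4 lists and more of it in CINs. H3K27ac covered 6380 and 2932 bp in CINs, compared with 2857 and 1583 bp in non-CINs, or 4656 ± 2438 against 2220 ± 901 bp (SD, n = 2 each), a ratio of 2.1. With peaks of -log10 q of at least 4, and with the strongest 30000 peaks of each list, the difference shrank from 2436 to 1327.5 bp, and the groups still did not overlap. The groups did not overlap, but CIN replicate 2 was above non-CIN replicate 1 by less than the spread within either population. The peak over the first TSS ranked at percentiles 92.5 and 91.1 for CINs but 80.1 and 67.9 for non-CINs. The window held 6111 and 11822 bp of H3K27me3 for CINs and 8945 and 12940 bp for non-CINs, the larger value of each pair being in non-CINs. Its strongest peaks were at percentiles 98.6 and 99.1 for CINs, then 99.6 and 99.4 for non-CINs, and no H3K27me3 peak lay over the first TSS in any list. Of the H3K27ac bp in CINs, 7.02 and 22.1% lay under H3K27me3, and of those in non-CINs 38.2 and 25.5%.

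*Nr2f1* stood at the other end. Of its 15785 bp window, H3K27ac covered 15130 and 14419 bp for CINs, and 14834 and 14587 bp for non-CINs, so that 91.3% or more was marked in every list. The population means, 14775 ± 503 and 14711 ± 175 bp (SD, n = 2 each), differed by less than the spread between replicates. Few coding genes were covered to this extent: 0.0460% had as large a share in both CIN lists, and 0.0368% in both non-CIN lists. The strongest peaks ranked at percentiles 96.8 and 96.1 for CINs, with 90.3 and 99.2 for non-CINs, and all 4 annotated start sites lay under a peak in all 4 lists. H3K27me3 was present in smaller pieces, 4208 and 4543 bp for CINs beside 3539 and 2218 bp for non-CINs, a ratio of the means of 1.52, with top percentiles from 65.4 to 84.6. That difference rests on weak peaks: with peaks of -log10 q of at least 4 only, it shrank from 1497 to 273 bp and the groups overlapped.

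*Nr2f2*, the paralog of *Nr2f1*, was covered mostly by H3K27me3. Of its 19792 bp window, 18469 and 18063 bp lay under H3K27me3 for CINs, and 18241 and 18255 bp for non-CINs, with the strongest peaks between percentiles 99.3 and 99.6. Only 0.740% of coding genes had as large a share of their window (91.3%) under H3K27me3 in all 4 lists. The groups overlapped, with population means that differed by 18.0 bp. H3K27ac was also called in every list, over 5435 and 6225 bp for CINs and over 4272 and 9040 bp for non-CINs, with both the lowest and the highest value in non-CINs. As large a share under H3K27ac was found at 2.02% of coding genes in both CIN lists (27.5% at the least). In both non-CIN lists (21.6% at the least) it was found at 3.92%. Between 83.4 and 94.9% of the H3K27ac bp at *Nr2f2* lay under H3K27me3 of the same population and replicate. The main TSS was under H3K27me3 in all 4 lists and under H3K27ac in non-CIN replicate 2 only.

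*Npas1* carried H3K27me3 at its start and little H3K27ac. H3K27ac covered 969 and 223 bp in CINs, in 2 and 1 peaks, and 0 bp in both non-CIN lists. For H3K27me3 the CIN lists gave 7740 and 7878 bp, and the non-CIN lists 7692 and 8940 bp, at top percentiles from 91.7 to 96.5, and its peak lay over all 3 annotated start sites in all 4 lists. The groups overlapped.

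*Npas3*, the other PAS gene, spans a large region and was marked by many separate H3K27ac peaks. There were 67 and 58 peaks covering 64456 and 56619 bp for CINs, and 109 and 74 peaks covering 96602 and 90605 bp for non-CINs. The means were 60538 ± 5542 and 93604 ± 4241 bp (SD, n = 2 each), a CIN to non-CIN ratio of 0.647, and both non-CIN lists were above both CIN lists by more than the spread between replicates. The strongest peaks ranked at percentiles 92.3 and 98.1 for CINs, then 98.7 and 99.5 for non-CINs. The first TSS lay under H3K27ac in all 4 lists. H3K27me3 took up less than 1% of the window in each list (0.152 to 0.915%), and replicate 2 had more of it than replicate 1 in both populations, as over the whole lists.

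**Figure D2:**
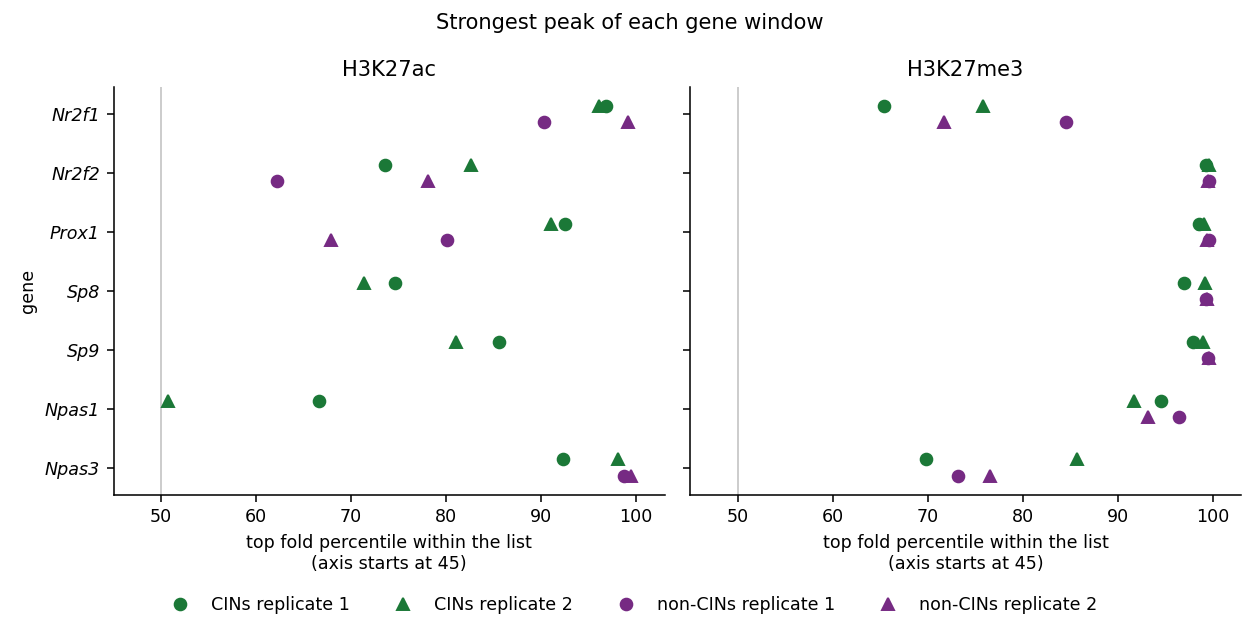
Fold percentile of the strongest peak in each gene window, within its own list, with H3K27ac on the left and H3K27me3 on the right; circles are replicate 1, triangles replicate 2, green CINs and purple non-CINs, and a list with no peak has no point. At *Prox1* the CIN points for H3K27ac (91.1 and 92.5) lie to the right of the non-CIN points (67.9 and 80.1), and at *Nr2f2*, *Prox1*, *Sp8* and *Sp9* all H3K27me3 points lie at 97.0 or above.

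Around the genes, H3K27ac regions found in 1 population only were searched over the gene and 500 kb on each side. High-confidence (HC) peaks, present in both replicates, numbered 221 for CINs and 232 for non-CINs in these spans. Of them, 30 were CIN-only (13.6%) and 34 were non-CIN-only (14.7%). Over all HC peaks of the autosomes and X, 11.7% of 35746 were CIN-only and 7.94% of 34946 non-CIN-only. The CIN-only share pooled over the 7 genes was thus close to the background, but *Npas3* lowered it, with 2 CIN-only among 70 HC peaks of CINs. The share was above the background at *Sp8* (9 of 18), *Prox1* (5 of 12) and *Nr2f2* (3 of 11). It was near or below the background at *Sp9* (4 of 34), *Nr2f1* (3 of 27) and *Npas1* (4 of 49). The non-CIN-only share was above its background mostly through *Npas3*, which held 21 of the 34. Over the other 6 genes the non-CIN-only share was 9.85% of 132. These totals rest on both replicates: 53 and 79 regions were found without replicate 1, and 96 and 101 without replicate 2. Of the 30 CIN-only regions, 17 were intergenic, 7 overlapped exons and 6 lay in introns, and genome-wide those shares were 41.6, 9.18 and 49.2%. Of the 34 non-CIN-only regions, 29 were intronic, against 63.9% genome-wide, and 21 of these 29 were the *Npas3* regions. The other 13 were 8 intronic and 5 intergenic. The lower of a region's 2 percentiles was 50 or more for 11 of 30 CIN-only and 1 of 34 non-CIN-only regions, against 22.5 and 3.64% genome-wide. The median lengths were 326 and 248.5 bp, against 368 and 267 bp genome-wide.

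**Figure D3:**
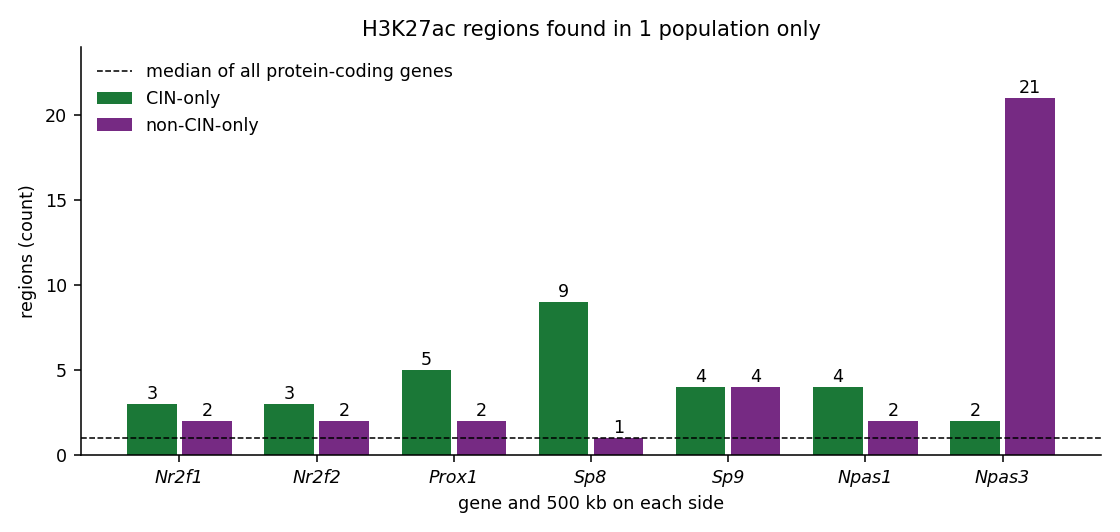
Number of CIN-only (green) and non-CIN-only (purple) H3K27ac regions over each gene and 500 kb on each side; the dashed line is the median over all coding genes, 1 for both classes. *Sp8* has 9 CIN-only regions and 1 non-CIN-only, and *Npas3* has 2 and 21.

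*Sp8* had the most CIN-only regions of the 7 genes, 9 of 18 HC peaks, and 1.10% of coding genes had as many. Its density was 8.94 per Mb searched, against 1.59 per Mb over the autosomes and X. Without replicate 2 the count was 21, and without replicate 1 it was 9. Of the 9, 6 were intergenic, and a pair of them stood out upstream in the interval that separates *Sp8* from *Sp4*. The region 120 kb upstream (118725000–118727447, 2448 bp) had folds over input of 5.79 and 6.68 in the CIN lists, at percentiles 88.3 and 81.9. The region 126 kb upstream (118719425–118721485, 2061 bp) had folds of 5.18 and 6.11, at percentiles 81.7 and 76.0. Both ranked above the CIN-only region inside the gene (4712 bp, percentiles 74.6 and 71.4), and *Sp8* was the nearest coding gene to both. H3K27me3 was absent from the first in all 4 lists and covered 454 of 2061 bp of the second in CIN replicate 2 and 1492 bp in non-CIN replicate 2. The central bases of the first region, printed above, held a SOX, an E-box and a MEIS core, and those of the second a SOX core.

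*Sp9* had 4 CIN-only and 4 non-CIN-only regions among 34 HC peaks of each population (11.8% each). Of coding genes, 15.5% had as many CIN-only and 9.39% as many non-CIN-only regions. Without replicate 1 the counts were 7 and 9, and without replicate 2 they were 11 and 9. Of the CIN-only regions, 3 lay in its own window, the longest of 6112 bp (73274616–73280727, percentiles 85.6 and 81.0). The third of them, 3.3 kb upstream, was 216 bp long, at percentiles 35.9 and 49.9, and held a TAATTA core. At 186 kb upstream a CIN-only region (73085731–73086050) and a non-CIN-only region (73086228–73086605) lay side by side, both with low percentiles (18.3 and 18.2, and 23.0 and 40.8). None of the 4 non-CIN-only regions had *Sp9* as its nearest coding gene.

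The *Nr2f* pair lie beside gene deserts, and each had 3 CIN-only and 2 non-CIN-only regions over the gene and 500 kb on each side. Of the 3 at *Nr2f1*, 1 (69 bp) lay in an intron of *Fam172a* and not in the desert, and 1 of the non-CIN-only regions of *Nr2f2* lay in its own window, 3.18 kb from the TSS. *Nr2f1* has *Fam172a* at 22737 bp on one side and no other coding gene for 2683626 bp on the other, towards *Arrdc3*. *Nr2f2* lies 982225 bp from *Gm10295* and 1602702 bp from *Arrdc4*, with no other coding gene within 500 kb. Of all coding genes, 26.1% had as many CIN-only regions and 35.5% as many non-CIN-only regions. Per Mb there were 2.97 and 2.96 CIN-only regions at *Nr2f1* and *Nr2f2*, against 1.59 over the autosomes and X, and 1.98 and 1.97 non-CIN-only regions, against 1.05. As a share of HC peaks of CINs, 3 of 27 were CIN-only at *Nr2f1* (11.1%) and 3 of 11 at *Nr2f2* (27.3%). The share over all HC peaks was 11.7%, so *Nr2f1* was close to it and *Nr2f2* above it. Of HC peaks of non-CINs, 2 of 20 and 2 of 12 were non-CIN-only, against 7.94%. With 1 replicate left out, the CIN-only counts were 6 and 7 at *Nr2f1* and 5 and 7 at *Nr2f2*, and the non-CIN-only counts from 4 to 6. With the strongest 30000 peaks of each list, 1 CIN-only region was left at each gene, with 2 non-CIN-only regions at *Nr2f1* and 0 at *Nr2f2*. With peaks of -log10 q of at least 4, *Nr2f1* had 2 and 3 and *Nr2f2* 1 and 1, and within 250 kb *Nr2f1* had 0 CIN-only regions. Merging peaks up to 1000 bp apart left 0 non-CIN-only regions at *Nr2f1*. *Nr2f1* had 21 stretches called in all 4 lists, 66431 bp in total, and *Nr2f2* had 6, covering 5935 bp. The longest shared stretch at *Nr2f1* (78162043–78175369, 13327 bp) lay beyond the end of the gene and ranked from percentile 80.0 to 92.2 in the 4 lists.

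In the *Nr2f1* desert the CIN-only region of 1417 bp at 403 kb upstream had folds of 4.19 and 5.68, at percentiles 62.8 and 70.5. A second CIN-only region of 206 bp lay 479 kb upstream, at percentiles 51.4 and 53.1, and a non-CIN-only region of 551 bp lay between them at 445 kb, at percentiles 40.1 and 46.0. The other non-CIN-only region, 13.7 kb upstream, lay in an intron of the antisense transcript *A830082K12Rik* and had 79 of its 197 bp under H3K27me3 in non-CIN replicate 1. In the *Nr2f2* desert the strongest CIN-only region (70103644–70105042, 1399 bp) lay 262 kb downstream of the TSS, with folds of 4.08 and 4.68 at percentiles 59.6 and 51.5. H3K27me3 covered 686 and 522 bp of it in the non-CIN lists and 0 bp in both CIN lists, and its central bases held a TAATTA and a CTGTCA core. The non-CIN-only regions of *Nr2f2* were short (411 and 272 bp) and ranked at or below percentile 17.0 in their lower replicate.

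At *Prox1*, 5 of 12 HC peaks of CINs were CIN-only, and 8.59% of coding genes had as many. Without replicate 1 the count was 9, and without replicate 2 it was 18. The intronic region (190137593–190138560, 968 bp), 32.6 kb from the TSS, had folds of 5.43 and 4.81 at percentiles 84.8 and 54.8, and no H3K27me3 peak in any list. A region of 1572 bp 306 kb downstream (percentiles 74.3 and 65.6) overlapped an exon of *Ptpn14*, and its nearest coding TSS was that of *Smyd2*. *Npas1* lies among 30 other coding genes within 500 kb, and 4 of 49 HC peaks of CINs were CIN-only there (8.16%, against 11.7% over all HC peaks). Of coding genes, 15.5% had as many CIN-only regions. The one inside *Npas1* (16472062–16472269, 208 bp, percentiles 66.6 and 50.7) was intronic, with a SOX core, and H3K27me3 covered 73 bp of it in CIN replicate 1 and all 208 bp in the other 3 lists. Without replicate 1 the *Npas1* count was 11, and without replicate 2 it was 16.

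At *Npas3*, 21 of 100 HC peaks of non-CINs were non-CIN-only, and 2 of 70 HC peaks of CINs were CIN-only. Only 0.00460% of coding genes had as many non-CIN-only regions, which is *Npas3* alone. Its span is also the longest of the 7, 1.82 Mb searched, and per Mb it had 11.5 non-CIN-only regions against 1.05 over the autosomes and X. Of the 21, 18 lay in introns of *Npas3* and 3 in introns of *Akap6*. They were short, with a median of 237 bp, and only the region printed above (53680795–53681164, folds 4.42 and 4.66) reached percentile 50 in both lists. With peaks of -log10 q of at least 4 only, the count fell to 6, and with the 30000 strongest peaks of each list it was 6 as well. With a single replicate pair it was 44 without replicate 1 and 58 without replicate 2, and the CIN-only count was 6 and 16. No H3K27me3 peak overlapped any of the 21.

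**Figure D4:**
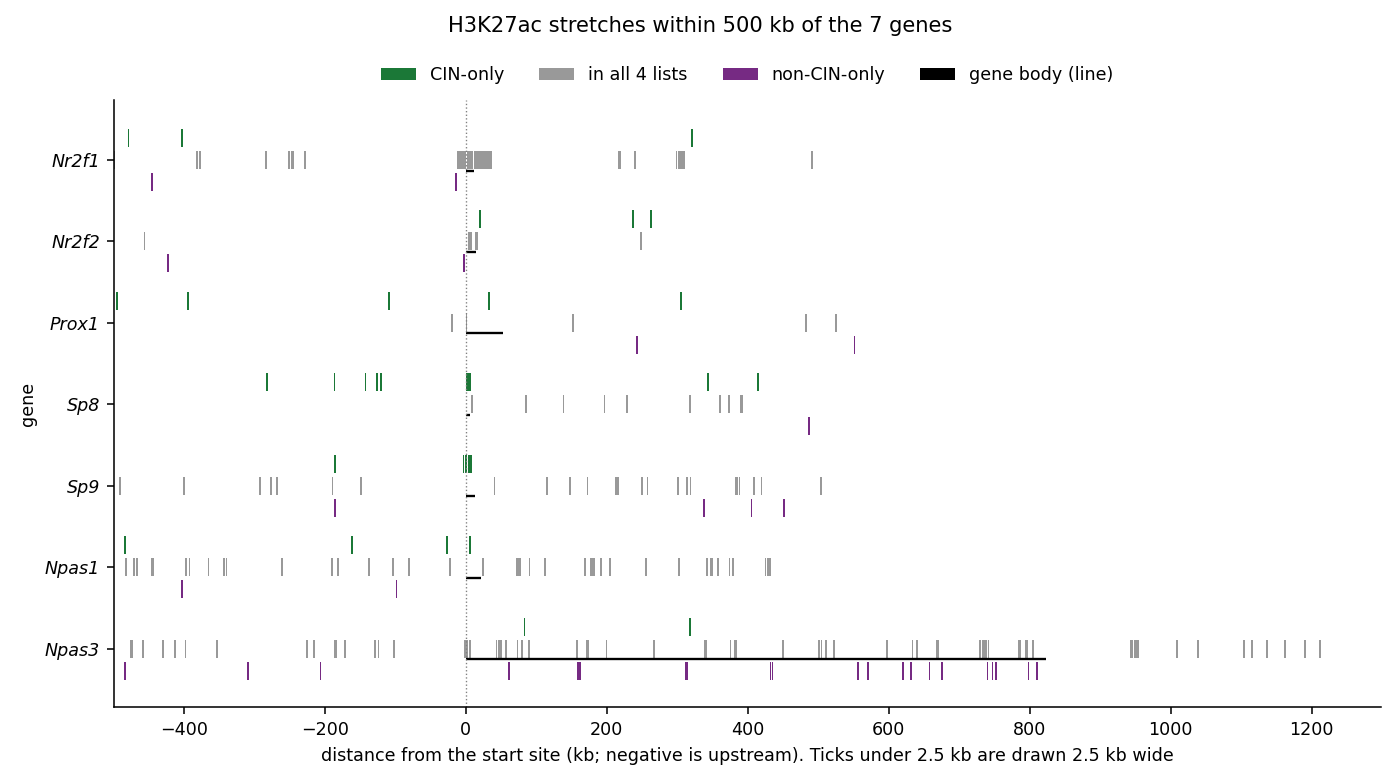
H3K27ac stretches by distance from the TSS in kb, oriented so that negative is upstream: CIN-only in green, called in all 4 lists in grey, non-CIN-only in purple, with the gene body as a black line; stretches under 2.5 kb are drawn 2.5 kb wide. The 9 green marks of *Sp8* include the pair at 120 and 126 kb upstream, and the purple marks of *Npas3* run along its gene body.

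The 6 cores were more frequent near the 7 genes than in all CIN-only regions, by small numbers. In the central 200 bases of the 30 CIN-only regions, CTGTCA and CAGCTG were each found in 9 (30%), against 19.2 and 17.0% of 4181 CIN-only regions genome-wide. TAATTA was found in 5 (16.7% against 10.9%), ACAATG in 6 (20.0% against 14.8%), AGGTCA in 4 (13.3% against 8.06%) and GGGCGG in 2 (6.67% against 4.40%). The G and C content did not set them apart, with a median of 45.5% in both sets. Among the 34 non-CIN-only regions 4 of the 6 cores were also above their share of 2775. TAATTA was found in 11.8% against 3.89%, GGGCGG in 8.82% against 2.74%, ACAATG in 20.6% against 10.3% and CTGTCA in 20.6% against 15.1%. AGGTCA (8.82% against 11.5%) and CAGCTG (11.8% against 12.4%) were not. The median G and C content of the non-CIN-only regions was 45.8% near the 7 genes and 47.5% genome-wide. The cores are matches of letters and were not tested.

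Other genes of the same systems set the scale. Of 10 transcription factor genes shared across the ventral forebrain, 5 had more H3K27ac in both CIN lists (4 *Dlx* genes and *Sox11*) and 1 (*Meis2*) in both non-CIN lists. The median H3K27ac difference was 85.0 bp per kb. *Dlx1* (10234 and 8322 bp), *Dlx2* (3810 and 3721 bp), *Dlx5* (4804 and 4128 bp) and *Dlx6* (9806 and 8843 bp) had H3K27ac in CINs and 0 bp in both non-CIN lists, as *Sp8* and *Sp9* did. *Gsx2* had H3K27ac in all 4 lists, over 514 to 1358 bp, and the populations overlapped. Of 9 transcription factor genes of the medial ganglionic eminence (MGE), 1 (*Zeb2*) had more H3K27ac in both CIN lists. *Lhx6*, *Nkx2-1* and *Lhx8* had no H3K27ac peak in any list, CINs included, and 16466 bp or more of H3K27me3 at *Lhx6* and *Lhx8* and 9951 bp at *Nkx2-1* in every list.

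Among 16 genes known as markers of CGE-derived interneurons, 8 had an H3K27ac peak in some list, 3 had more in both CIN lists (*Adarb2*, *Htr3a* and *Reln*) and 4 in both non-CIN lists (*Sncg*, *Cxcl14*, *Id2* and *Egfr*), with a median difference of 0.0 bp per kb. *Adarb2*, an RNA editing family gene, had 9090 and 5703 bp for CINs but 1222 and 418 bp for non-CINs. *Htr3a*, a serotonin receptor gene, had 717 and 248 bp for CINs with 0 bp in both non-CIN lists, and *Reln*, which encodes reelin, had 5234 and 3671 bp against 2452 and 1641 bp. *Vip*, *Calb2* and *Cck* had no H3K27ac peak in any list. Of 8 relatives of the 7 genes, 1 (*Npas4*) had more H3K27ac in both CIN lists and 2 (*Prox2* and *Sp5*) in both non-CIN lists. *Sp5* had 717 and 869 bp for CINs but 1924 and 2025 bp for non-CINs, the reverse of *Sp8* and *Sp9*, and more H3K27me3 in both CIN lists (7428 and 7561 bp against 5844 and 6175 bp).

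The sort was checked on markers of cell types. All 5 GABAergic genes had more H3K27ac in both CIN lists and more H3K27me3 in both non-CIN lists, and all 3 astrocyte genes had more H3K27ac in both non-CIN lists. Of 3 oligodendrocyte lineage genes, *Olig2* had more H3K27ac in both non-CIN lists, *Olig1* overlapped, and *Pdgfra* went the other way, with 1899 and 3668 bp for CINs and 981 and 1283 bp for non-CINs. For H3K27me3, *Olig1* and *Olig2* had more in both CIN lists and *Pdgfra* in both non-CIN lists. Of 3 microglial genes, *Cx3cr1* had more H3K27ac in both non-CIN lists, and neither of 2 endothelial genes was separated in either mark. Of 5 genes of pallial excitatory neurons, 3 had an H3K27ac peak in any list and 1 (*Emx1*) had more in both non-CIN lists, and *Neurod2* and *Slc17a7* had none in any list. For H3K27me3, *Emx1* (10144 and 12189 bp against 8184 and 9126 bp) and *Neurod6* (1805 and 3171 bp against 0 bp in both) had more in both CIN lists and none of the 5 had more in both non-CIN lists. The lists held from 46040 to 62505 H3K27ac peaks (40.8 to 56.3 Mb) and from 36662 to 45081 H3K27me3 peaks (34.5 to 49.8 Mb). Replicate 1 had more peaks than replicate 2 for each mark and population, and for H3K27ac it also covered more bp. For H3K27me3 replicate 2 covered more, 44.2 against 34.5 Mb in CINs and 49.8 against 39.4 Mb in non-CINs. These differences were addressed by the comparisons within a replicate number and, for peak number, with the strongest 30000 peaks of each list. Covered bp were not made equal between lists, and the part of these differences in the values above was not tested further.

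The genes most like each of the 7 were found by distance over 4 differences, CIN minus non-CIN bp per kb for both marks in both replicates, among all coding genes. The nearest to *Sp8* were *Dlx5* (68.2 bp per kb), *Vax1* and *Sp9* (138.1), and the nearest to *Sp9* were *Dlx5* (133.9), *Sp8* and *Slc32a1* (155.0), the vesicular GABA transporter gene. The nearest to *Prox1* were *Pou2f2* (11.6), *Vstm2b* and *Macrod1* (17.9). Those of *Nr2f1* (*Tcf15* and *Cfap65* among them, at 30.3 and 30.9) and *Nr2f2* (*Gm17571*, *Ppp1r9b* and *Gpr151*, 23.5 to 28.5) were alike in differences, and levels were not compared. For *Npas1* they were *Rab39b*, *Ruvbl1* and *Mmp28* (6.8 to 11.4), and for *Npas3* *Nr1d1*, *Bcl2* and *Nln* (2.7 to 3.5).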

How the data were processed

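MNase-digested native chromatin of sorted cells was immunoprecipitated for H3K27ac or H3K27me3. Reads were mapped by the authors with BWA (0.7.15) on the mm10 build, keeping a mapping quality of 30, and broad peaks were called per replicate with MACS2 against matched input (q cutoff 0.01, extension 200 bp). The deposited lists give each peak a fold enrichment (a linear ratio to input) and −log10 q, per the file format. The 4 inputs came without peak lists and were not used. For each gene, peaks, covered bp and the top fold percentile were computed from unmerged peaks (Python 3.11.15, NumPy 2.4.6). Regions used peaks merged at 500 bp or less, with the populations compared within replicate numbers as in the study, but by presence or absence of a peak (an overlap of 1 bp counted as shared) and not by its differential calling on signal. Deviations of same-numbered samples correlated at 0.139 for H3K27ac and 0.347 for H3K27me3, with only 2 numbers, so pairing is not established. The regions named are up to 3 per gene and class with the highest lower percentile. An exception is the *Sp9* CIN-only region 186 kb upstream, which ranked 4 in its class. Genes of other lists with values are among the first 6 as written. A few genes of these lists are not reported here. Other list genes that met a condition were named after their values were seen. Sequencing depth was not given in the sources used here, and p-values across samples were not computed. Interval steps were tested on simulated data. The members and lists were chosen with earlier results of these data known. Alternatives are in the closing section.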

Additional observations from a re-analysis of the deposited data

How the results depend on the processing

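The count of genes with more H3K27ac in CINs was 4 under every alternative (the same genes: *Prox1*, *Sp8*, *Sp9* and *Npas1*), except without replicate 2, where it was 6. With 1 replicate left out it ranged from 4 to 6, and the count with more H3K27ac in non-CINs from 1 to 3, the 3 (*Nr2f1*, *Nr2f2* and *Npas3*) being without replicate 1. By definition, a gene counted with both replicates stays counted under the replicate block and with a replicate left out. With 1 list against 1 the condition is looser: it was met by 41.4 to 55.9% of all genes tested for H3K27ac and by 34.4 to 49.5% for H3K27me3, over both directions and replicates. The H3K27me3 counts were less stable. More H3K27me3 in CINs was found at 1 gene, at 2 with the replicate block, at 0 with peaks of -log10 q of at least 4, and at 2 to 4 with a replicate left out. More H3K27me3 in non-CINs was found at 0 genes, at 2 with the replicate block, at 1 (*Npas1*) with -log10 q of at least 4, at 1 (*Sp9*) with windows over basic transcripts, an alternative chosen after seeing the data, and at 2 to 4 with a replicate left out. The 30 CIN-only regions stayed 30 with no replicate block, were 20 to 41 under the other settings, and rose to between 53 and 96 when 1 replicate alone set them. The 34 non-CIN-only regions were 40 with no replicate block, 14 with -log10 q of at least 4, 11 with the strongest 30000 peaks of each list, and 79 to 101 with a replicate left out. Over the 7 genes singly, 7 differences in covered bp moved by more than the spread between replicates and 77 did not, and 57 region counts moved by over 1.5 times and 83 did not. None of the 6 differences called with both replicates changed sign, and leaving out a replicate could not change it, by the definition of a call. Those without a call could: for H3K27ac, *Nr2f1* went from 296 bp (CIN minus non-CIN) without replicate 2 to -168 bp without replicate 1, and *Nr2f2* from 1163 to -2815 bp. Peak lists without counts do not show whether a peak that is missing from a list was absent or below the cutoff, and the cause of each shift was not tested.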
